A study of Homo sapiens with 6 samples.

Results

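The DNA replication genes described here are 49 gene symbols taken from a list that follows the steps of chromosome copying. The list runs from origin recognition through helicase loading and activation, the replicative polymerases, the sliding clamp, single-strand binding, Okazaki fragment joining, nucleotide supply and chromatin assembly to the transcription factor E2F1. All 49 were found among the 53715 genes of the count table, and all 49 passed the filter on low counts, which left 19156 genes for testing. No measured value was used to choose them, but the list was drawn up with earlier results of these data known.

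RNA was sequenced from H9 cells, an established line of primed human embryonic stem cells, after transfection of 25 nM of a fluorescein-tagged oligonucleotide. The 3 groups were ASO-L1, an antisense oligo against LINE1 (L1), the retrotransposon family that is repeated throughout human DNA; sO-L1, the sense oligo of the same target; and ASO-Ctr, an antisense oligo with no specific target. Each group had 2 libraries, and tagged cells were sorted 48 hours after transfection. In all groups 3 compounds were present until 24 hours: ISRIB at 0.7 uM, which blocks the integrated stress response, emricasan at 5 uM, which blocks caspases, and the ROCK inhibitor Y-27632 at 10 uM. As to the culture medium used once the cells had been transfected, the labels disagree between mTeSR and RSeT. H9 is a single cell line, and the labels do not say that the libraries of a group came from separate cultures. The p-values thus measure the spread between these libraries, drawn largely from all genes together, and this spread may be technical. Transcripts of L1 elements were not analysed here, so the counts give no check of the knockdown itself.

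DNA replication starts at origins bound by the origin recognition complex, on which CDC6 and CDT1 load the MCM2-7 helicase during G1. At the start of S phase the kinase CDC7 and its partner DBF4, with CDC45 and the GINS complex, turn the loaded helicase into a moving fork, where polymerase alpha with primase lays down primers that polymerases delta and epsilon extend. Many of these genes are transcribed at the G1/S transition under E2F factors, and primed human embryonic stem cells are known for a short G1 and a large share of cells in S phase.

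Sequencing depth ranged from 18897936 to 67192937 counts per library, and the shallowest and the deepest library were both ASO-Ctr. Mitochondrial genes held 3.79% to 4.24% of the counts. Levels are given in CPM, counts per 1000000 counts of the library after TMM scaling. The 12 pluripotent cell markers summed to 10940 to 10990 CPM in ASO-L1 and 11090 to 11520 CPM in sO-L1. In ASO-Ctr they summed to 10810 to 11360 CPM. In ASO-L1 against sO-L1 2 of these markers rose, SOX2 among them, and 4 fell, with DNMT3B and L1TD1 among those. Of all genes tested, 10.3% rose and 12.7% fell in that comparison. When replicate number was left out of the fit, 0 of the 12 markers were called higher and 0 lower. The 16 markers of differentiated lineages summed to 8.15 to 13.6 CPM in all libraries together, 8 of them were too low to be tested, and HAND1 was at 0 in every library. Of the 8 tested, FOXA2 fell and EOMES rose against sO-L1, each below 4 CPM in all libraries. Of the 8 fibroblast markers DCN and LUM did not exceed 0.0881 CPM, and the list summed to 173 and 179 CPM in ASO-L1, 143 and 167 CPM in sO-L1 and 146 and 165 CPM in ASO-Ctr, almost all of it from COL1A1 and COL1A2. COL1A1 rose by 0.63 ± 0.06 (log2, SE) against sO-L1, the only call among the 6 fibroblast markers tested. Of these 6, 4 had a fold change below 0 and 2 above, with a median of -0.057. COL1A2 had a mean of 91.6 CPM in ASO-L1 and 97.8 CPM in sO-L1. The part of COL1A1 in the results below was not tested.

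Taken as a sum, the 49 replication genes held 0.684% of the counts in both ASO-L1 libraries, 0.737% and 0.728% in sO-L1, with 0.728% and 0.701% in ASO-Ctr. ASO-L1 thus had the lowest share of the unscaled counts in both libraries. After TMM scaling the 49 genes summed to 6935 and 6841 CPM in ASO-L1, 7503 and 7198 CPM in sO-L1, and 7302 and 6869 CPM in ASO-Ctr. On that scale ASO-L1 lay below sO-L1 but overlapped with ASO-Ctr. Levels in CPM are not corrected for gene length, so levels are compared between libraries and not between genes. In bulk RNA, fewer cells in S phase and less RNA of a gene per cell cannot be told apart.

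Of the 49 replication genes, 17 fell in ASO-L1 against sO-L1 and 0 rose (edgeR's quasi-likelihood test in a fit blocked by replicate number, Benjamini-Hochberg adjusted p under 0.05 over all genes tested). The 17 are 34.7% of the members, where 12.7% of all genes tested were called lower and 10.3% higher. The median SE was 0.049 in the members and 0.091 over all genes tested, so small changes were more readily called among the members. Shares among genes of like SE were not tested. At an unadjusted p under 0.05, 21 members were lower and 0 higher in the same test, where 17.7% of all genes tested were lower and 15.5% higher at that threshold, and DESeq2 and limma-voom also called 0 members higher. The largest falls were those of POLA2, GINS2 and UNG, whose levels were 0.65-fold, 0.712-fold and 0.738-fold those in sO-L1. The other 14 called genes were CDC7, MCM6, RRM1, RPA3, GINS1, CHAF1B, RRM2, GINS3, RPA2, POLD3, FEN1, ORC5, PCNA and POLD1, whose log2 fold changes lay between -0.27 and -0.14. The 32 members that were not called lay between -0.12 and 0.10, 23 of them below 0 and 9 above.

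The count depended on the replicate block and on single libraries. Without the block 3 members were called, POLA2, GINS2 and UNG, all lower, where 0.924% of all genes were called lower and 0.914% higher. Without ASO-L1 replicate 1 the count was 6, and without sO-L1 replicate 1 it was 7. POLA2, GINS2, UNG, CDC7, MCM6 and CHAF1B were called in both of these fits, with RRM1 added without sO-L1 replicate 1. The median log2 fold change of the members was -0.087, against -0.001 over all genes tested, and it stayed between -0.11 and -0.063 when any single library was left out. Leaving out POLA2, GINS2 and UNG, the median of the other 46 was -0.082.

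**Figure D1:**
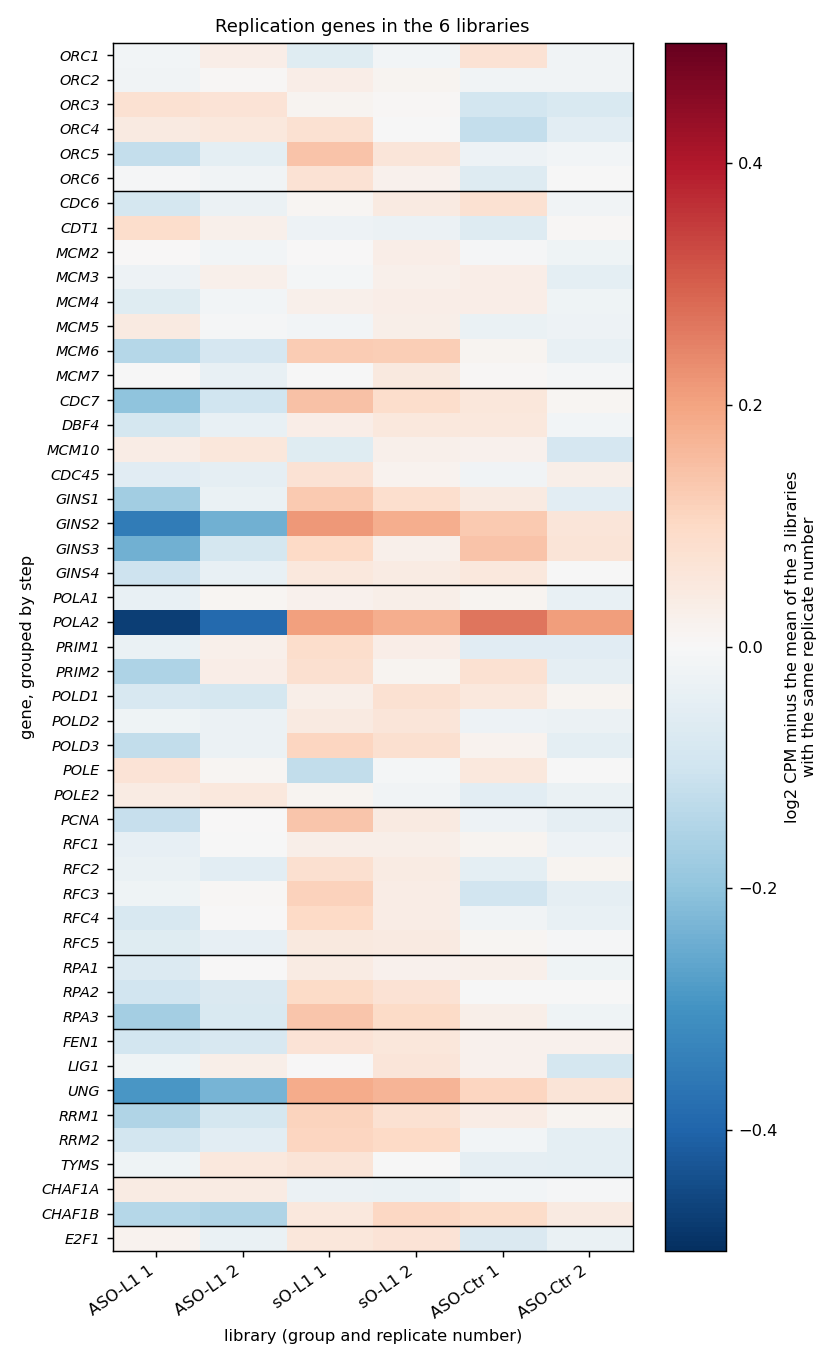
Log2 CPM of the 49 replication genes (rows, grouped by step between black lines) in each library (columns), minus the mean of the 3 libraries with the same replicate number (color scale, log2 units). POLA2, GINS2 and UNG are the darkest blue rows in both ASO-L1 libraries, while most other rows stay pale.

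**Figure D2:**
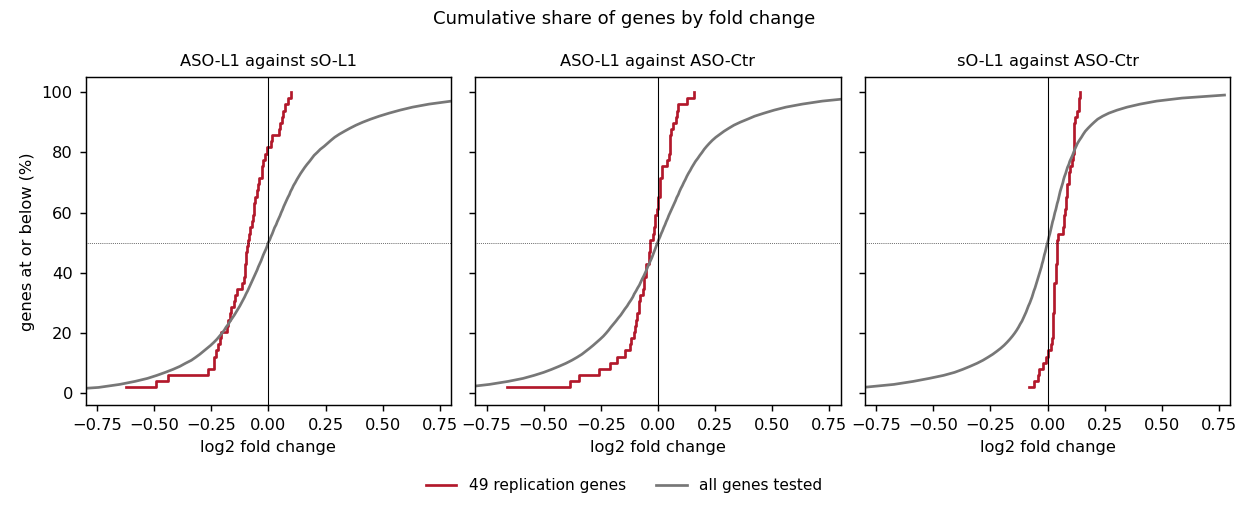
Cumulative share (%) of the 49 replication genes (red) and of all genes tested (grey) at or below each log2 fold change, in the 3 comparisons. In ASO-L1 against sO-L1 the red curve crosses 50% at -0.087, left of 0, and it ends at 0.10 while the grey curve runs far beyond on both sides.

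The promoters of the 6 called members with the smallest p are shown for the letters of E2F-type sites, because many replication genes are E2F targets in human cells. The letters searched were TTTCCCGC, TTTCGCGC, TTTGCCGC and TTTGGCGC on both strands, in RefSeq windows from 250 bases before to 50 bases after each annotated start (GRCh38.p14). The windows of 43 members were in the table, and 21 of them (48.8%) held at least 1 match, where 3.99% of all 27305 genes and 6.12% of the 11349 tested genes with a window did. A match was found in 8 of 14 called members with a window (57.1%) and in 13 of 29 members that were not called (44.8%). Matches are given in capitals below, on the strand of the gene, in the bases before the start that lie outside annotated GENCODE exons. For POLA2 and GINS2, whose match lies outside the longest run free of annotated exons, only 30 bases round it are given. The stretches are POLA2 at chr11:65261898-65261927 (plus strand), GINS2 at chr16:85688967-85688996 (minus strand), UNG before its second annotated start at chr12:109098022-109098117 (plus strand), CDC7 before its second annotated start at chr1:91500962-91501107 (plus strand), MCM6 at chr2:135876444-135876593 (minus strand) and RRM1 at chr11:4094535-4094684 (plus strand).
POLA2: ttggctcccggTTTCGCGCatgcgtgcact
GINS2: ctctcgccgtgGCGGGAAAacggcggccgc
UNG: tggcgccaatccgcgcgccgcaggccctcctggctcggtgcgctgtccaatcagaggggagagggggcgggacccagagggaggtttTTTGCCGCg
CDC7: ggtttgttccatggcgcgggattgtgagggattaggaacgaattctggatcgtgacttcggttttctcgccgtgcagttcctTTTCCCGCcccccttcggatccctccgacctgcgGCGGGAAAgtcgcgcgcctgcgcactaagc
MCM6: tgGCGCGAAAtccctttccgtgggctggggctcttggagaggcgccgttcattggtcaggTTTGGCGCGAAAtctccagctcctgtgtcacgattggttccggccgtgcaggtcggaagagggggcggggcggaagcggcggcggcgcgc
RRM1: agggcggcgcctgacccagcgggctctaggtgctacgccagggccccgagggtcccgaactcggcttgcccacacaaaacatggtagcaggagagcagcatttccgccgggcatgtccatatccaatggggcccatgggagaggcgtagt
POLA2, GINS2 and UNG each had 1 match, 53, 31 and 63 bases before the start. CDC7 had 2, at 68 and 34 bases. In MCM6 the letters of TTTGGCGC and of the reverse of TTTCGCGC overlapped at 90 and 86 bases before the start, and the same overlapping pair stood at 152 and 148 bases, where the first 2 bases of the printed stretch belong to it. RRM1 held none in its window. E2F1 itself held 2 matches and was not called. UNG and CDC7 each have 2 annotated starts, which the counts per gene do not separate. In both genes the window of the first start held no match.

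The origin recognition complex, the ATPase that marks origins, changed in 1 of its 6 members against sO-L1, where 12.7% of all genes were called lower. ORC5, a subunit of the complex, had 38.1 and 38.6 CPM in ASO-L1, 45.7 and 41.7 CPM in sO-L1, and 40.6 and 39.5 CPM in ASO-Ctr. Both ASO-L1 libraries lay below all 4 others, and the sO-L1 libraries were the highest. ORC5 fell by 0.18 ± 0.06 (log2 fold change, SE) against sO-L1, with an adjusted p of 0.017 in edgeR's test, and the p was 0.29 without the block and 0.097 in DESeq2. Its fold change was -0.13 without ASO-L1 replicate 1 (adjusted p 0.32) and -0.12 when sO-L1 replicate 1 was left out (adjusted p 0.376). The other 5 subunits lay between -0.057 and 0.064. Per 100 counts of those 5 subunits, ORC5 had 8.32 and 8.54 counts in ASO-L1, 9.90 and 9.36 in sO-L1, with 9.19 and 9.09 in ASO-Ctr.

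In helicase loading 1 of 8 members was called, near the 12.7% of all genes called lower. MCM6, a subunit of the ring-shaped MCM2-7 helicase, had 234 and 243 CPM in ASO-L1, 282 and 280 CPM in sO-L1, and 261 and 251 CPM in ASO-Ctr. The groups did not overlap, with ASO-L1 lowest and sO-L1 highest. MCM6 fell by 0.24 ± 0.05 against sO-L1 (adjusted p 1.2e-04, and 0.117 without the block). The remaining helicase subunits MCM2, MCM3, MCM4, MCM5 and MCM7 were between -0.066 and 0.012, and none was called. Since the ring holds 1 copy of each subunit, the counts were also set side by side: per 100 counts of the other 5 subunits MCM6 had 11 and 11.7 counts in ASO-L1, 13.1 in both sO-L1 libraries, and 12.0 and 12.3 in ASO-Ctr. The loaders CDC6 and CDT1 had fold changes of -0.087 and 0.084 and were not called.

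Helicase activation held the largest number of called members, 4 of 8, with a median of -0.16, where 12.7% of all genes were called lower. The share was larger, 2 of 3 each, in single-strand binding, in Okazaki fragment joining with uracil removal and in nucleotide supply. Their medians were -0.165, -0.147 and -0.176. The GINS complex of GINS1, GINS2, GINS3 and GINS4 joins CDC45 and the MCM ring in the active helicase. GINS2 had 59.6 and 59.8 CPM in ASO-L1, 88.1 and 80.1 CPM in sO-L1, and 83.2 and 73.9 CPM in ASO-Ctr. Both ASO-L1 libraries were far below the other 4, which overlapped between sO-L1 and ASO-Ctr. GINS2 fell by 0.49 ± 0.05 against sO-L1 (adjusted p 2.96e-10, and 0.0247 without the block). An exon of GINS2 overlaps GSE1 on the other strand, and no source used here says whether reads were counted by strand, so its count is uncertain; GSE1 itself had a fold change of 0.004 ± 0.049 (adjusted p 0.967).

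The other GINS subunits moved less. GINS1 fell by 0.21 ± 0.05 (adjusted p 0.00171, and 0.243 without the block). GINS3 had 26.7 and 25.2 CPM in ASO-L1, 33.8 and 27.2 CPM in sO-L1, and 34.8 and 28.0 CPM in ASO-Ctr, and ASO-L1 lay below all other libraries. It fell by 0.22 ± 0.07 against sO-L1 (adjusted p 0.010, and 0.425 without the block), and it too overlaps a gene on the other strand. GINS4 was at -0.12 ± 0.05 and was not called (adjusted p 0.113). Within the complex, GINS2 had 29.3 and 28.5 counts per 100 counts of the other 3 subunits in ASO-L1, 35.9 and 35.4 in sO-L1, with 35 and 34.7 in ASO-Ctr.

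CDC7, the kinase that phosphorylates the MCM ring to fire origins, had 108 and 115 CPM in ASO-L1, 137 and 131 CPM in sO-L1, and 129 and 124 CPM in ASO-Ctr. The groups did not overlap, and ASO-L1 was lowest. CDC7 fell by 0.27 ± 0.05 against sO-L1 (adjusted p 4.9e-05, and 0.0999 without the block). Its activating partner DBF4 was at -0.11 ± 0.05 (adjusted p 0.117), CDC45 at -0.094 ± 0.066 (adjusted p 0.335) and the fork protein MCM10 at 0.061 ± 0.050 (adjusted p 0.428).

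Among the 9 polymerase and primase subunits 3 fell, where 12.7% of all genes were called lower. POLA2, the regulatory B subunit that ties polymerase alpha to primase, showed the largest change of all 49 members. It had 36.8 and 39.8 CPM in ASO-L1, 58.8 and 59.1 CPM in sO-L1, and 61.4 and 60.2 CPM in ASO-Ctr. The 2 ASO-L1 libraries stood well apart from the other 4, which lay within a few CPM of each other. POLA2 fell by 0.62 ± 0.055 against sO-L1 (adjusted p 1.5e-12, and 0.00795 without the block). The other subunits of the same 4-protein complex were not called: the catalytic subunit POLA1 was at -0.039 ± 0.047, and the primase subunits PRIM1 and PRIM2 at -0.064 ± 0.050 and -0.099 ± 0.059. Per 100 counts of these 3 partners POLA2 had 12.7 and 12.6 counts in ASO-L1 and 18.9 and 18.5 in sO-L1. In ASO-Ctr it had 20.3 and 19.8. POLA2 shares exon bases with AP000944.2 on the same strand, which has no entry in the counts. The effect of this overlap on the count of POLA2 was not tested.

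In polymerase delta, which copies the lagging strand, the catalytic subunit POLD1 fell by 0.14 ± 0.05 (adjusted p 0.0341, and 0.366 without the block) and POLD3 by 0.17 ± 0.05 (adjusted p 0.0151, and 0.318 without the block), while POLD2 was at -0.081 and was not called. POLD1 was not called when any of the 4 libraries compared was left out. POLD3 shares exon bases with AP001372.2 on the same strand, which had 1052 counts over all libraries against 18836 for POLD3. AP001372.2 itself fell by 0.53 ± 0.14 (adjusted p 0.00363 in edgeR's test). POLD1 shares exon bases with AC020909.1 on the same strand, which has no entry in the counts. The leading-strand polymerase epsilon gave the highest fold change of all members, 0.10 ± 0.05 for its catalytic subunit POLE (adjusted p 0.154), and POLE2 was at 0.049. POLE had 105 and 110 CPM in ASO-L1, 91.6 and 108 CPM in sO-L1, and 103 and 109 CPM in ASO-Ctr, and its lowest library was sO-L1 replicate 1.

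**Figure D3:**
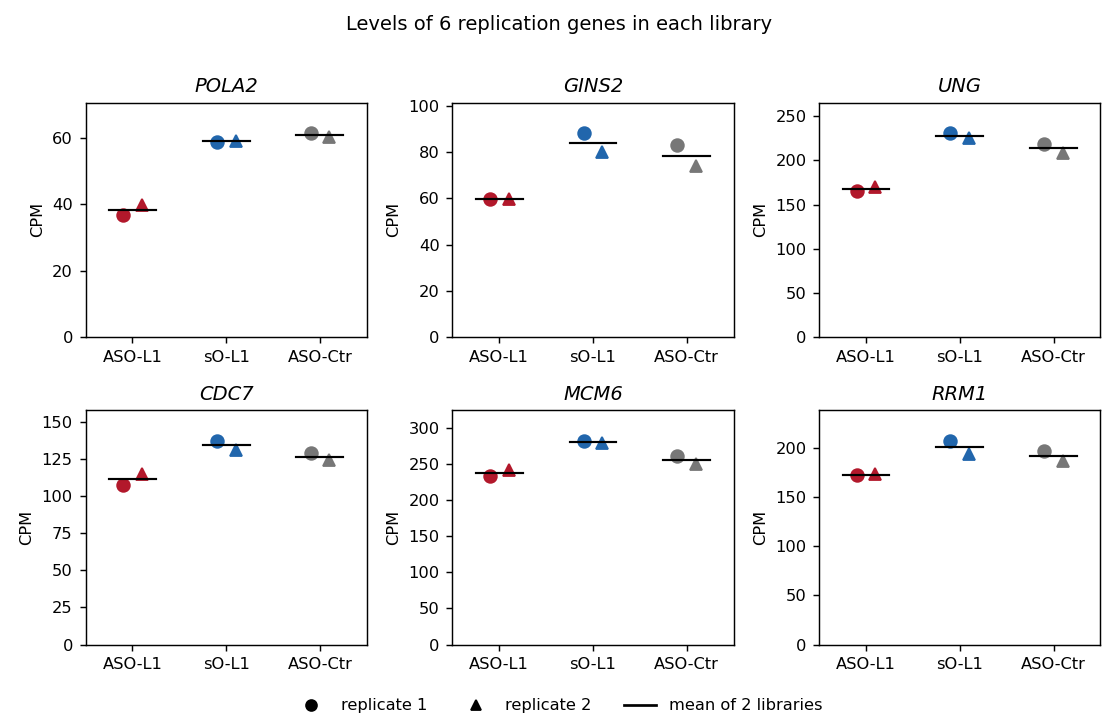
CPM (linear axis from 0) of POLA2, GINS2, UNG, CDC7, MCM6 and RRM1 in ASO-L1, sO-L1 and ASO-Ctr; circles are replicate 1, triangles replicate 2 and bars the mean of 2 libraries. In every panel both ASO-L1 libraries lie below the 4 others, POLA2 at 36.8 and 39.8 CPM against 58.8 to 61.4 CPM in the rest.

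**Figure D4:**
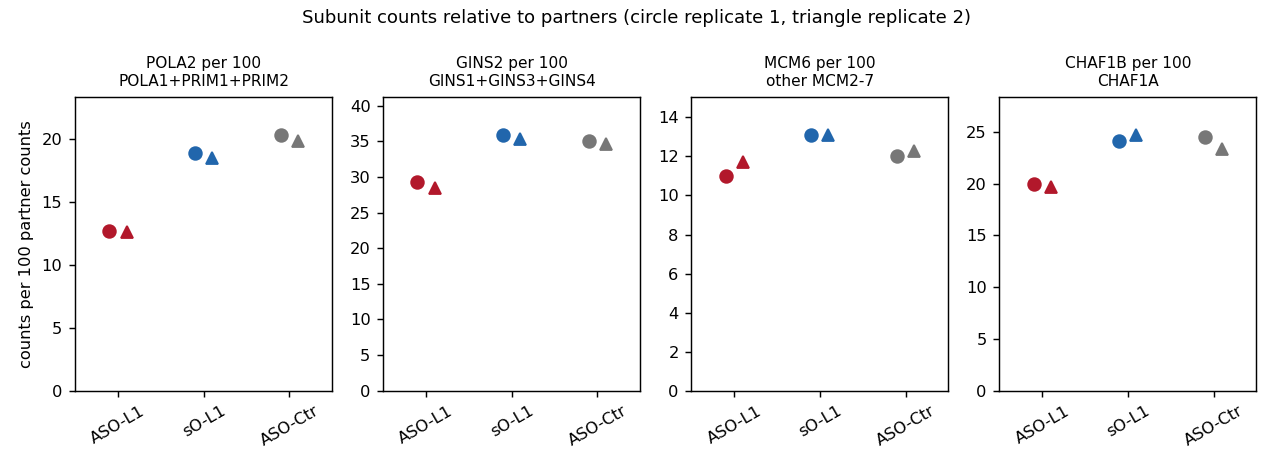
Counts of a subunit per 100 counts of its partners in the same complex, for POLA2, GINS2, MCM6 and CHAF1B in each library (circle replicate 1, triangle replicate 2; axes from 0). Each of the 4 ratios is lowest in both ASO-L1 libraries, 12.7 and 12.6 for POLA2 against 18.5 to 20.3 in the other groups. The subunits shown were picked among members called lower against sO-L1, which favors low ratios in ASO-L1. Of the ratios not shown, those of ORC5 and RRM1 were also lowest in ASO-L1. CDC7 per 100 DBF4 counts overlapped with ASO-Ctr (116 and 131 in ASO-L1, 125 and 139 in ASO-Ctr), and RPA3 per 100 counts of RPA1 and RPA2 overlapped with both controls.

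The sliding clamp and its loader gave 1 call in 6 members, near the 12.7% of all genes called lower. PCNA, the ring that holds polymerases on DNA, had 375 and 355 CPM in ASO-L1, 448 and 366 CPM in sO-L1, and 400 and 343 CPM in ASO-Ctr. The groups overlapped, and replicate 1 was above replicate 2 in every group. PCNA fell by 0.15 ± 0.05 against sO-L1 in the fit with the block (adjusted p 0.0196), and the p was 0.526 without it. Leaving out ASO-L1 replicate 1 gave -0.062 (adjusted p 0.654), and leaving out sO-L1 replicate 1 gave -0.078 (adjusted p 0.51). The clamp loader subunits RFC1 to RFC5 lay between -0.10 and -0.048, all 5 below 0 and none called.

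Replication protein A coats single-stranded DNA at the fork, and 2 of its 3 subunits fell. RPA3, the smallest subunit, had 51.3 and 43.2 CPM in ASO-L1, 63.5 and 48.7 CPM in sO-L1, and 58.9 and 44.9 CPM in ASO-Ctr. Here too the groups overlapped and replicate 1 was the higher library of each group. RPA3 fell by 0.24 ± 0.055 against sO-L1 (adjusted p 7.99e-04, and 0.483 without the block), and the adjusted p was 0.11 without ASO-L1 replicate 1 and 0.076 without sO-L1 replicate 1. Its exons overlap genes on the other strand. RPA2 fell by 0.17 ± 0.05 (adjusted p 0.0106, and 0.444 without the block), with groups that overlapped, and the largest subunit RPA1 was at -0.064 and was not called.

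UNG removes uracil that polymerases build into new DNA. It had 166 and 170 CPM in ASO-L1, 231 and 225 CPM in sO-L1, and 219 and 209 CPM in ASO-Ctr. The groups did not overlap, with both ASO-L1 libraries well below the rest. UNG fell by 0.44 ± 0.05 against sO-L1 (adjusted p 3.73e-10, and 0.0177 without the block). FEN1, the flap nuclease that trims Okazaki fragments, fell by 0.15 ± 0.05 (adjusted p 0.017, and 0.494 without the block). Its groups overlapped, and no call was made when any of the 4 libraries compared was left out. FEN1 shares exon bases with FADS2 on the same strand, which had 174235 counts over all libraries against 48025 for FEN1 and itself fell by 0.19 ± 0.05 (adjusted p 0.00166), and with TMEM258 on the other strand, so its count is uncertain. LIG1, the ligase that joins the fragments, was at -0.028 and was not called.

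Ribonucleotide reductase makes deoxynucleotides, and both of its S-phase subunits fell. RRM1, the large subunit, had 173 and 174 CPM in ASO-L1, 208 and 195 CPM in sO-L1, and 197 and 187 CPM in ASO-Ctr. ASO-L1 was below all 4 other libraries. RRM1 fell by 0.21 ± 0.05 against sO-L1 (adjusted p 5.79e-04, and 0.167 without the block), and the adjusted p was 0.0725 without ASO-L1 replicate 1. RRM2, the small subunit, fell by 0.18 ± 0.05 (adjusted p 0.00377, and 0.264 without the block). RRM2 shares exon bases with AC007240.1 on the same strand, which has no entry in the counts. RRM1 overlaps RRM1-AS1 on the other strand, which had 3 counts over all libraries. TYMS, which makes thymidylate, was at -0.015 ± 0.048.

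In the chromatin assembly factor CAF-1, which places histones on new DNA, 1 of 2 subunits was called, where 12.7% of all genes fell. CHAF1B, the middle subunit, had 34.9 and 34.5 CPM in ASO-L1, 40.0 and 41.2 CPM in sO-L1, and 41.0 and 39.6 CPM in ASO-Ctr. Both ASO-L1 libraries lay below the rest. CHAF1B fell by 0.23 ± 0.06 against sO-L1 (adjusted p 0.00257, and 0.174 without the block), and the adjusted p was 0.132 without sO-L1 replicate 2. The large subunit CHAF1A had 174 and 176 CPM in ASO-L1, 166 and 167 CPM in sO-L1, and 168 and 170 CPM in ASO-Ctr, with a fold change of 0.073 ± 0.047 that was not called (adjusted p 0.281). Per 100 CHAF1A counts, CHAF1B had 20 and 19.7 counts in ASO-L1, 24.1 and 24.7 in sO-L1, with 24.5 and 23.3 in ASO-Ctr. CHAF1B shares exon bases with MORC3 on the same strand, so its count is uncertain. MORC3 had 12072 counts over all libraries against 10979 for CHAF1B, with a log2 fold change of 0.12 ± 0.056 against sO-L1.

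E2F1, the transcription factor that drives S-phase genes, had 45.7 and 42.1 CPM in ASO-L1, 47.1 and 45.2 CPM in sO-L1, and 43.0 and 42.1 CPM in ASO-Ctr. The groups overlapped. Its fold change against sO-L1 was -0.073 ± 0.055 (adjusted p 0.379).

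**Figure D5:**
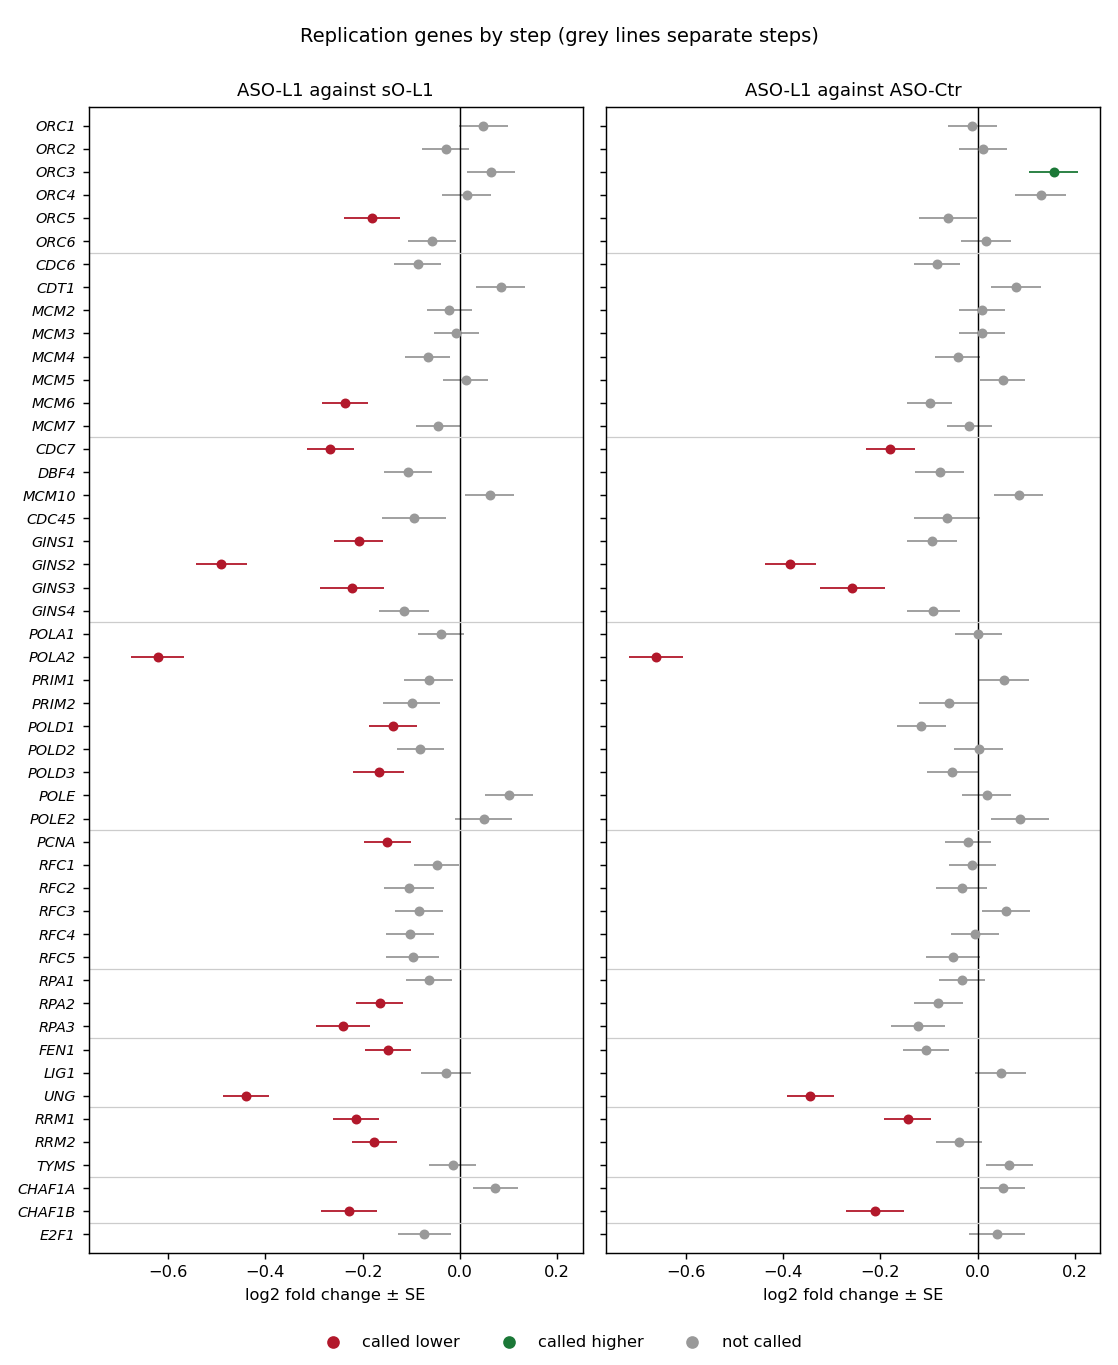
Log2 fold change ± SE of the 49 replication genes in ASO-L1 against sO-L1 (left) and ASO-L1 against ASO-Ctr (right), by step between grey lines; red marks called lower, green called higher and grey not called. POLA2 is the leftmost point in both panels, at -0.62 and -0.66, and ORC3 is the single green point, at 0.16 against ASO-Ctr.

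Against ASO-Ctr fewer replication genes differed. In ASO-L1 against ASO-Ctr, 7 of 49 fell (14.3%, where 11.6% of all genes tested were called lower) and 1 rose (2.04%, where 9.88% were called higher). The median log2 fold change was -0.033, against -0.002 over all genes tested, and 30 members were below 0. The 7 were POLA2, GINS2, UNG, CDC7, GINS3, CHAF1B and RRM1, and all 7 were also called against sO-L1, a comparison that shares the same ASO-L1 libraries. Without the block 2 members were called, POLA2 and UNG, both lower, where 1.05% of all genes were called lower and 0.903% higher. The count of members called in either direction was 4 without ASO-L1 replicate 1 and 3 without ASO-Ctr replicate 1, against 8 with all libraries.

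POLA2 fell by 0.66 ± 0.06 against ASO-Ctr (adjusted p 4.17e-13, and 0.00631 without the block), UNG by 0.34 ± 0.05 (1.89e-07, and 0.0378 without the block) and GINS2 by 0.385 ± 0.053 (1.96e-07, and 0.0551 without the block). These 3 kept an adjusted p under 0.05 in each alternative run with the block. CDC7 fell by 0.18 ± 0.05 (adjusted p 0.0064, and 0.238 without the block), with adjusted p of 0.348 without ASO-L1 replicate 1 and 0.138 without ASO-Ctr replicate 1. GINS3 fell by 0.26 ± 0.07 (adjusted p 0.00349, and 0.355 without the block), with -0.155 (adjusted p 0.255) without ASO-L1 replicate 1 and an adjusted p of 0.0759 without ASO-Ctr replicate 1. CHAF1B fell by 0.21 ± 0.06 (adjusted p 0.00716, and 0.198 without the block), with adjusted p of 0.0538 in DESeq2, 0.0737 without ASO-L1 replicate 2 and 0.0971 without ASO-Ctr replicate 1. RRM1 fell by 0.14 ± 0.05 (adjusted p 0.0235, and 0.342 without the block), with adjusted p of 0.388 without ASO-L1 replicate 1, 0.227 and 0.0757 without ASO-Ctr replicates 1 and 2, and 0.0505 with no filter on low counts.

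The other 10 members called against sO-L1 lay between -0.12 and -0.020 against ASO-Ctr and were not called, and whether their fold changes differed between the comparisons was not tested. MCM6 was at -0.099 ± 0.047 (adjusted p 0.132), RRM2 at -0.039 ± 0.047, PCNA at -0.020 ± 0.048, POLD3 at -0.052 ± 0.053 and ORC5 at -0.061 ± 0.059. ORC3, a core subunit of the origin recognition complex, was the member that rose. It had 94.0 and 92.6 CPM in ASO-L1, 90.0 and 88.5 CPM in sO-L1, and 83.5 and 83.8 CPM in ASO-Ctr, so that the groups did not overlap and ASO-Ctr was lowest. The rise of ORC3 was 0.16 ± 0.05 (adjusted p 0.0188, and 0.279 without the block). It was not called when any of the 4 libraries compared was left out, with adjusted p of 0.124 without ASO-L1 replicate 1, 0.0912 without ASO-L1 replicate 2, 0.159 without ASO-Ctr replicate 1 and 0.0883 without ASO-Ctr replicate 2.

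Between the 2 control oligos no member was called, though most fold changes of sO-L1 against ASO-Ctr were above 0. In sO-L1 against ASO-Ctr, 43 of 49 fold changes were above 0, with a median of 0.041 against 0 over all genes tested and a range from -0.082 to 0.14. None of the 49 was called in edgeR, with or without the block, or in DESeq2 or limma-voom, where 1.06% of all genes were called lower and 0.658% higher in edgeR with the block. At an unadjusted p under 0.05 edgeR gave 10 members higher and 0 lower with the block and 0 without it, DESeq2 4 higher and limma-voom 10 higher. Over all genes tested, 6.32% were higher and 6.46% lower at that threshold in edgeR with the block. The smallest adjusted p was 0.144, for RRM2 at 0.14 ± 0.05, and MCM6 had the same fold change with an adjusted p of 0.145. POLA2 was at -0.040 ± 0.055, so the 2 control groups differed in POLA2 by less than their error.

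Seen by library, both ASO-L1 libraries lay below both sO-L1 libraries in 22 members (44.9%, where 23.4% of all genes did) and above them in 4 (8.16%, where 23.6% did). Against ASO-Ctr the counts were 11 (22.4%, where 24.8% of all genes did) and 7 (14.3%, where 23.8% did). Against sO-L1, 37 of the 49 members were lower in both same-numbered pairs of libraries, where 6914 of 19156 genes tested (36.1%) were. Between sO-L1 and ASO-Ctr both libraries were below in 2 members (4.08%, where 15.2% did) and above in 12 (24.5%, where 14.5% did).

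Replicates of a group also differed in these genes. Replicate 2 was below replicate 1 in 27 of 49 members in ASO-L1, 39 in sO-L1 and 38 in ASO-Ctr, with median log2 differences of -0.015, -0.065 and -0.072, against 0.005 to 0.011 over all genes tested. The median difference of ASO-L1 from sO-L1 was -0.11 between the replicate 1 libraries and -0.064 between the replicate 2 libraries, and from ASO-Ctr it was -0.070 and 0.007.

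In the authors' deposited table of ASO-L1 minus sO-L1, made from batch-corrected values, 17 of the 49 members were lower at the authors' adjusted p under 0.05 and 0 higher, where 11.9% of its 16753 genes were lower and 11.2% higher. POLA2 was at -0.61, GINS2 at -0.48 and UNG at -0.43 in that table.

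Genes around the replication machinery were counted from lists that leave out the 49 members. These counts stand beside the 12.7% lower and 10.3% higher of all genes tested against sO-L1, and the 11.6% lower and 9.88% higher against ASO-Ctr. Of 32 other fork and licensing genes, 10 fell and 2 rose against sO-L1, with a median of -0.025, and against ASO-Ctr 6 fell and 4 rose. Without the block none of the 32 was called in either comparison, and 5 and 7 of them had an unadjusted p under 0.05. GMNN, which encodes geminin, the inhibitor of CDT1, had 95.8 and 92.0 CPM in ASO-L1, 128 and 105 CPM in sO-L1, and 120 and 98.2 CPM in ASO-Ctr. It was lowest in ASO-L1 and fell by 0.305 ± 0.052 against sO-L1 (adjusted p 1.07e-05, and 0.216 without the block). DTL, an adaptor for the destruction of CDT1, fell by 0.22 (adjusted p 5.02e-04, and 0.148 without the block) and the histone chaperone ASF1B by 0.23 (adjusted p 0.00175, and 0.163 without the block).

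Of 26 other genes of S-phase supply and the G1/S transition, 7 fell and 1 rose against sO-L1, and 5 fell against ASO-Ctr. SAMHD1, a phosphohydrolase that breaks down deoxynucleotides, had 31.0 and 34.1 CPM in ASO-L1, 53.7 and 52.8 CPM in sO-L1, and 56.3 and 52.8 CPM in ASO-Ctr. As with POLA2, both ASO-L1 libraries stood well below the other 4. SAMHD1 fell by 0.71 ± 0.06 against sO-L1 (adjusted p 1.49e-13, and 0.00702 without the block) and by 0.73 against ASO-Ctr. UHRF1, which keeps DNA methylation through replication, fell by 0.205 ± 0.050 against sO-L1 (adjusted p 0.00182, and 0.267 without the block).

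Of 28 tested regulators of E2F, RB and the G1/S kinases, 8 fell and 2 rose against sO-L1, and 7 fell and 2 rose against ASO-Ctr. CDKN1A, which encodes the kinase inhibitor p21, had 71.6 and 60.5 CPM in ASO-L1, 44.3 and 39.6 CPM in sO-L1, and 47.6 and 43.2 CPM in ASO-Ctr. Both ASO-L1 libraries were above all others, and CDKN1A rose by 0.65 ± 0.05 against sO-L1 (adjusted p 2e-13, and 0.0194 without the block). TFDP1, the dimer partner of the E2F factors, fell by 0.32 ± 0.05 against sO-L1 (adjusted p 9.37e-07, and 0.0531 without the block). CCND1, the D-type cyclin, fell by 0.34 ± 0.055 (adjusted p 6.04e-06, and 0.318 without the block), with groups that overlapped.

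Of 30 mitotic genes, which act after replication is complete, 9 fell and 2 rose against sO-L1, with a median of -0.049, and 3 fell and 2 rose against ASO-Ctr. HMMR, a spindle protein, fell by 0.31 ± 0.05, the checkpoint gene MAD2L1 by 0.22 ± 0.05 and the kinetochore motor gene CENPE by 0.21 ± 0.05 against sO-L1, none of them called without the block. Falls in ASO-L1 against sO-L1 were thus counted in 10 of 32, 7 of 26, 8 of 28 and 9 of 30 genes of these lists and in 17 of 49 replication genes, where 12.7% of all genes tested fell. Without the block the falls called were 0, 1, 1 and 0 in these lists and 3 in the replication genes, and the differences between these shares were not tested.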

How the data were processed

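Poly(A) RNA of 6 H9 libraries, 2 per group, was read with a directional kit, per the labels' protocols. Trim Galore 0.4.0, TopHat2 2.0.13, Subread 1.5.0 with featureCounts and the build hg19 are named in the submitters' processing notes. The deposited count table gives unnormalized reads for each gene symbol after removal of duplicates, per the table's name in the labels; strand setting and annotation are not given in the sources used here. The authors' deposited log2 table holds normalized, batch-corrected values. The authors' deposited comparison table holds log2 fold changes, p-values and test scores, with model and adjustment not stated; its sign was set against the log2 table (correlation 0.996).

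Samples were grouped by the labels. Of 53807 entries 92 were spike-ins and left out. Counts were scaled by TMM (factors 0.983 to 1.02), filtered with filterByExpr (minimum count 10, minimum total 15) and fitted with edgeR 4.0.16 (R 4.3.3), quasi-likelihood with robust estimation, all 6 libraries in 1 fit with group and replicate number, leaving 2 residual degrees of freedom before moderation. The median prior degrees of freedom were 44.8, so the spread used for a gene came largely from that shared over genes. P-values were Benjamini-Hochberg adjusted over 19156 genes and called under 0.05. The SE was obtained as the size of the log2 fold change divided by √F. The replicate number stands in the design because a batch-corrected table is among the outputs named in the labels; they do not say that it marks a batch, and 2 numbers cannot establish a pairing. Log2 CPM differences of replicate 2 from replicate 1 correlated at 0.19 to 0.28 between groups over all genes tested. Over the DNA replication members alone these correlations were 0.55 to 0.74. The cause of these shared differences was not tested.

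The members and lists were chosen with earlier results of these data known. Genes named are the 6 members with the smallest p among those called per comparison, every member called without the block, the member with the smallest p in each step, and up to 3 called genes of each other list, of which 1 is not reported here; further members are given to account for all of a complex. Alternatives were upper-quartile scaling, size factors of DESeq2, DESeq2 1.42.0 itself, no filter, limma-voom (limma 3.58.1), no block, the 4 libraries compared, each library left out in turn and adjusted p under 0.1; thinning every library to the lowest total was an alternative chosen after seeing the data. The fit was run on simulated data with a replicate shift shared by all groups and planted changes larger than those of most called members. That run therefore does not bear on the choice of block or on small changes. Exons overlapping other genes were found in GENCODE v29 (GRCh38); promoter windows are RefSeq's, and no coordinate was converted from the authors' build.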

Additional observations from a re-analysis of the deposited data

How the results depend on the processing

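Without the replicate block the members called were 3 in ASO-L1 against sO-L1 and 2 in ASO-L1 against ASO-Ctr, against 17 and 8 with it. Leaving out 1 library in turn gave 6 to 17, 3 to 8, and 0 to 0 members called in ASO-L1 against sO-L1, in ASO-L1 against ASO-Ctr and in sO-L1 against ASO-Ctr, with the lowest counts without replicate 1 of the groups compared. The single library then left in a group was taken to vary as the other groups do. DESeq2 called 13, 7 and 0 members, limma-voom 17, 8 and 0, and thinning 15, 9 and 0. Over all genes tested the calls were 4412, 4120 and 330; they were 352, 374 and 0 without the block, 2364, 2441 and 125 in DESeq2, and 1802 to 4702, 2336 to 3693 and 9 to 496 with a library left out. In sO-L1 against ASO-Ctr limma-voom called 168 genes, the 4 libraries compared 516 and adjusted p under 0.1 called 520. The cause of these changes was not tested. Of 26 fold changes followed under each alternative, those of the 17 and 8 called members and of E2F1 against sO-L1, 0 changed sign. Groups of 2 libraries are too small for a check of single outlying libraries.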
